A study of Mus musculus with 6 samples.

Results

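The genes examined here were 40 genes of lipid synthesis, chosen by symbol from a list of 2 branches: 24 genes of cholesterol (sterol) synthesis and its control, and 16 genes of fatty acid and triglyceride synthesis and its control. All 40 were among the 53599 genes of the count table, and all 40 passed the filter on low counts that left 12691 genes for testing. The rule that picks them uses gene symbols and no measured value, but the list was made with earlier results of these data known.

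RNA-seq was done on mouse hepatocytes harvested 4 days after mice received an adeno-associated virus (AAV), a vector that delivers a gene to cells in the living animal. The Sox4 group (n = 3) received AAV8-TBG-HA-Sox4-P2A-Cre, which encodes the transcription factor SOX4 with an HA tag, together with Cre recombinase. The control group (n = 3), called EV for empty vector, received AAV8-TBG-Cre, so Cre was delivered to both groups. Per the study's methods the animals were Rosa-LSL-Cas9-EGFP mice on a C57BL/6J background, in which Cre switches on Cas9 and EGFP, so hepatocytes reached by either vector carried these proteins as well; the labels give the genotypes only as WT and Sox4. The TBG promoter is active in hepatocytes. The cells were freed with liberase and enriched on Percoll, and no sorting for vector-bearing cells is described for them. The study's methods give an age at injection of 4 to 8 weeks for mice that received Sox4 vectors. Feeding state and the hour of harvest are not given in the sources used here. The study reports that mice given Sox4 lost weight after injection and later regained most of it. It also describes their livers in that period as smaller and paler than those of EV mice. The part of these differences in the results below was not tested.

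Cholesterol is built from acetyl-CoA through mevalonate, squalene and lanosterol, and fatty acids are built from the same acetyl-CoA through malonyl-CoA. In liver the sterol branch is driven mainly by the transcription factor SREBP-2 and the fatty acid branch by SREBP-1c and ChREBP, and SREBP proteins leave the endoplasmic reticulum only with SCAP, a step that INSIG proteins hold back when sterols are plentiful. SREBP commonly acts on promoters beside NF-Y, a factor that binds the sequence CCAAT, and the mRNAs of the fatty acid branch are known to follow feeding and insulin.

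Total counts per library ranged from 15090629 to 16964860. Sox4 itself had 2, 0 and 3 counts in the EV libraries and 21697, 15097 and 11816 counts in the Sox4 libraries, in accord with the labels. Summed hepatocyte markers lay between 110000 and 132700 CPM (counts scaled to a library of 1e+06) in EV and between 78060 and 89430 CPM in Sox4. Of these 7 markers 5 were called lower in Sox4 (adjusted p under 0.05), against 26.0% of all tested genes. Markers of other cells were far less abundant, but several sums were higher in Sox4: 27.57 to 64.21 against 11.94 to 24.55 CPM for 9 Kupffer cell and macrophage genes, and 71.5 to 84.71 against 27.49 to 43.69 CPM for 7 cholangiocyte genes, of which Krt19 and Krt7 were at 0 in every EV library. The sum of 7 stellate and fibroblast genes was 8.721 to 34.16 against 1.541 to 8.714 CPM. For 7 endothelial genes it was 20.2 to 39.58 against 18.57 to 25.36 CPM. For 6 lymphocyte and neutrophil genes it was 1.403 to 4.291 against 0.7706 to 2.278 CPM. In contrast, 5 erythroid genes summed to 4.966 to 15.54 against 93.03 to 126.2 CPM, but only 1 of them passed the filter, and it was called lower. Hba-a2 and Hbb-bt were at 0 in every EV library and had counts in at least 1 Sox4 library, with Hbb-bt at 3 counts or fewer throughout. Called higher were 5 of 9 Kupffer cell and macrophage genes and 3 of 7 endothelial genes (1 was lower), against 29.0% of all tested genes. Of the genes that passed the filter, 2 of 3 stellate and fibroblast and 2 of 4 cholangiocyte genes were called higher. Only 1 lymphocyte and neutrophil gene passed the filter, and it was not called. The part of these marker shifts in the results that follow was not tested. In bulk RNA fewer cells of a type cannot be told apart from less RNA per cell.

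Promoter sequence was examined as a feature that the choice of genes did not use. The bases just upstream of the start of 6 genes are shown because these genes were among the members that fell furthest or lead their branch, and because they differ in the motifs they hold, and they were chosen after their values were seen. Each is the 250 bases before the start in RefSeq on GRCm38.p6, written 5′ to 3′ on the strand of the gene, at chr13:119690101-119690350 (Hmgcs1, + strand), chr8:122443423-122443672 (Mvd, - strand), chr8:64733579-64733828 (Msmo1, - strand), chr5:28071162-28071411 (Insig1, + strand), chr11:120824548-120824797 (Fasn, - strand) and chr7:97417551-97417800 (Thrsp, - strand). Capitals mark the NF-Y box (CCAAT, or ATTGG where it lies on the other strand) and the classical sterol regulatory element (SRE, searched as TCACNCCAC on both strands).
Hmgcs1: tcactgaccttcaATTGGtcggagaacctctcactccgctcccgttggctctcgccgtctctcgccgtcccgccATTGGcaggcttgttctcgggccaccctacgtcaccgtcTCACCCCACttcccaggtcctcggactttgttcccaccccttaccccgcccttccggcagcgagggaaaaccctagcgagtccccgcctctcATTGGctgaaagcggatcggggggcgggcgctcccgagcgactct
Mvd: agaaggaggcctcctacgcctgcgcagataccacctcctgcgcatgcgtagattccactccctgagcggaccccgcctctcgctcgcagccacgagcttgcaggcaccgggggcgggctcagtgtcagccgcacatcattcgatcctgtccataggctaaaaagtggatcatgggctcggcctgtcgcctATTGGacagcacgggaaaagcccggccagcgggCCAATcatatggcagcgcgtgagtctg
Msmo1: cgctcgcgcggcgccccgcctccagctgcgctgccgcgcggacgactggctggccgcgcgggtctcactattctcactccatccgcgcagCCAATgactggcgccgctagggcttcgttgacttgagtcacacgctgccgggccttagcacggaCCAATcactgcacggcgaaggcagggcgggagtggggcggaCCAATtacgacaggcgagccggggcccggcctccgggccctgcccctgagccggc
Insig1: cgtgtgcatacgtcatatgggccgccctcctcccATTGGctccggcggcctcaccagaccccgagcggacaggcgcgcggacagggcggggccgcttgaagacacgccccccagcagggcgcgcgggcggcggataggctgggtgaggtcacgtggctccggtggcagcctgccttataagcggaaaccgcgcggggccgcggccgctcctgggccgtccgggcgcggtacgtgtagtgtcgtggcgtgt
Fasn: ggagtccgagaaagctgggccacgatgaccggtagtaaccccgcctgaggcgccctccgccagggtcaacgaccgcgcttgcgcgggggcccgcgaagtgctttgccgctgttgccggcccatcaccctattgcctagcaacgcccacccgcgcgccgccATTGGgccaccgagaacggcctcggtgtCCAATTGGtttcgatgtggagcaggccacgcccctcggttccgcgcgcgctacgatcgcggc
Thrsp: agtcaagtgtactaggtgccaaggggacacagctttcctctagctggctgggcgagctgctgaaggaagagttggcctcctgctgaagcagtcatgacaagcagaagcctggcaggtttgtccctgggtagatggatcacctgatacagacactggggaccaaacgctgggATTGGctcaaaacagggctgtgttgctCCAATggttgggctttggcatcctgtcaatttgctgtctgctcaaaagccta

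Hmgcs1 held 3 NF-Y boxes, 237, 176 and 45 bases upstream of the start, and 1 SRE 137 bases upstream. Msmo1 and Fasn also held 3 NF-Y boxes, and those of Fasn at 62 and 59 bases upstream overlapped as CCAATTGG. Mvd and Thrsp held 2 each, and Insig1 held 1, which was 216 bases upstream. Across windows of 250 bases before and 50 after the start, RefSeq promoters were matched for 32 of the 40 members, 19 of the sterol branch and 13 of the fatty acid branch. An NF-Y box lay in a promoter of 17 of the 19 sterol genes (89.5%) and 9 of the 13 fatty acid genes (69.2%), against 43.5% of the 9664 tested genes with a promoter and 41.1% of all 27025 genes with one. The GC box GGGCGG, the site of SP1, lay in 94.7% of the sterol and 61.5% of the fatty acid genes, against 67.7% of tested genes and 38.2% of all genes. The SRE as spelled here was found only in Hmgcs1 and Mlxipl, and in 1.52% of tested genes. An E-box CACGTG was found in 26.3% of the sterol and 7.69% of the fatty acid genes, against 11.9% of tested genes. The SOX core ACAAAG was found in 4 of the 19 sterol genes (21.1%) and 0 of the 13 fatty acid genes, against 16.5% of tested genes, and the HNF4 core CAAAGTCCA in none of the 32 genes against 0.642% of tested genes. Motifs were searched on both strands, and a match or its absence describes only the letters of these windows.

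Both branches were lower in hepatocytes given Sox4. Of the 24 sterol genes 22 fell, none rose and 2 did not pass the test, with a median log2 fold change of -2.09 and a range of -3.68 to -0.11. Of the 16 fatty acid genes 14 fell, 1 rose and 1 did not pass, with a median of -1.15 and a range of -5.73 to 0.32. Calls were made at an adjusted p of 0.05 with edgeR's quasi-likelihood test over all tested genes. Among all 12691 genes 55.1% were called, 26.0% lower and 29.0% higher, and their median log2 fold change was 0.04. The lower share was thus 91.7% of the sterol genes and 87.5% of the fatty acid genes. A fall of at least 2-fold was called for 21 sterol genes and 9 fatty acid genes, against 11.9% of all tested genes, and no member rose by that much, against 16.5%. The Sox4 and EV libraries did not overlap for 22 sterol and 15 fatty acid genes, against 63.0% of all tested genes. Every Sox4 library was below every EV library for 22 sterol and 14 fatty acid genes, against 29.9% of tested genes, and above for 1 fatty acid gene, against 33.1%. When counts were scaled by library size alone, which lifts the median of all genes to 0.51, 21 sterol genes fell and 1 rose (median -1.63), and 10 fatty acid genes fell and 2 rose (median -0.68). The 40 genes are not independent of one another, since members of a branch moved together from library to library.

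**Figure D1:**
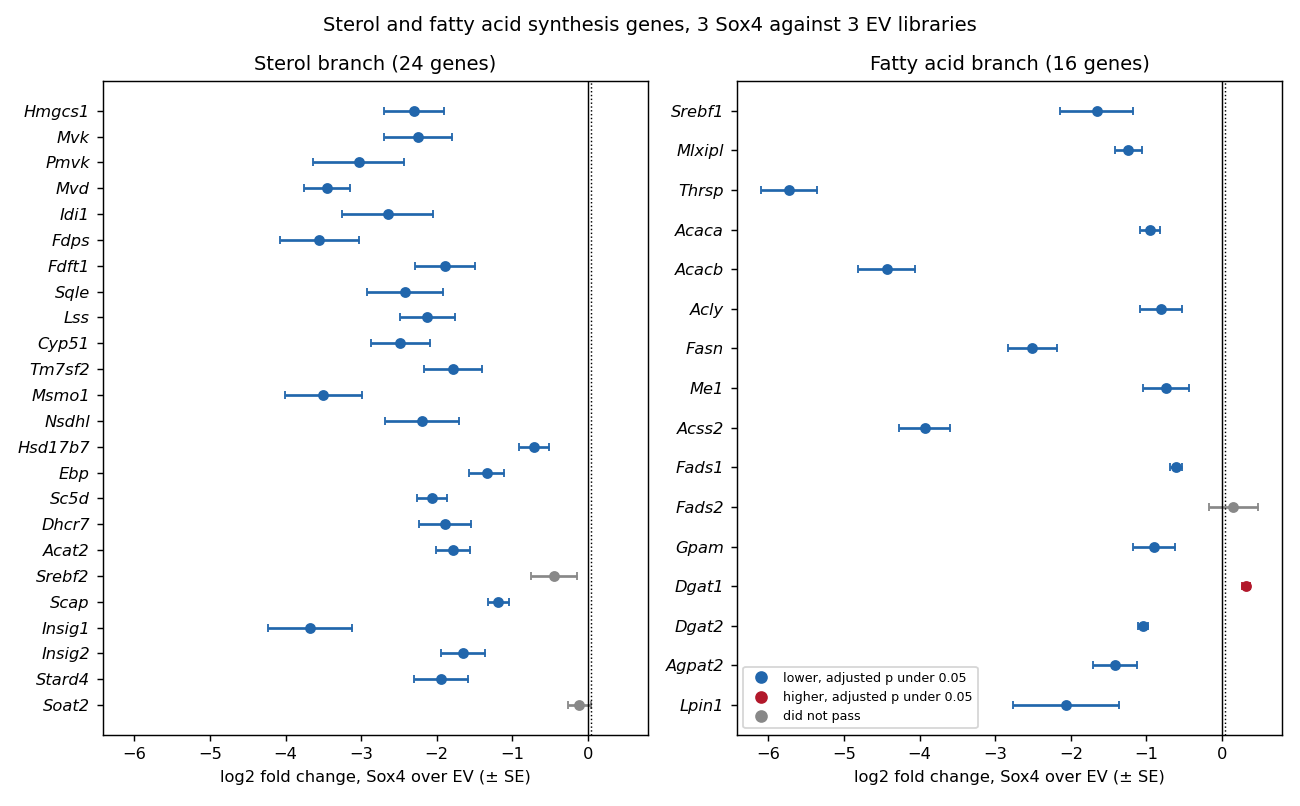
Log2 fold change of Sox4 over EV for each of the 40 genes (horizontal axis), grouped by branch, with bars of 1 standard error (SE, n = 3 libraries a group), blue for lower and red for higher at an adjusted p under 0.05, grey for genes that did not pass, and a dotted line at the median of all tested genes (0.04). In the sterol branch 22 of 24 genes, and in the fatty acid branch 14 of 16, lie below 0 and past the threshold, and Thrsp has the lowest value at -5.73.

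In the sterol branch, all 18 enzymes fell, 17 of them by at least 2-fold, with a median log2 fold change of -2.22. Summed over the 24 genes of the branch, levels were 6614, 5420 and 4555 CPM in the EV libraries and 1415.5, 1508 and 1002 CPM in the Sox4 libraries, so the Sox4 mean was 23.7% of the EV mean. The groups did not overlap, and the lowest EV library stood well above the highest Sox4 library. Values below are CPM on library sizes scaled by the trimmed mean of M-values method (TMM), given in the order of replicate 1, 2 and 3, and errors on means are SD (n = 3).

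The first steps of the branch fell together. Hmgcs1, which joins acetyl-CoA and acetoacetyl-CoA into HMG-CoA, was at 793, 605 and 445 CPM in EV and at 132, 163 and 78.9 CPM in Sox4. All Sox4 libraries were far below all EV libraries, with means of 614 ± 174 and 125 ± 42.7 CPM (log2 fold change -2.30, SE 0.39, adjusted p = 0.000274). Acat2, the cytosolic thiolase that supplies acetoacetyl-CoA, was at 119, 105 and 76.8 CPM in EV and 32.3, 30.1 and 24.8 CPM in Sox4, a fall of 3.44-fold (adjusted p = 2.85e-05). Its mRNA shares 28.9% of its 100-base stretches with other annotated genes, mainly Acat3, so reads could be divided between them. Acat3 fell as well, from 210 ± 11.0 to 94.3 ± 16.9 CPM (adjusted p = 0.000139).

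All 5 enzymes from mevalonate to farnesyl diphosphate fell, by 4.76-fold to 11.7-fold. Mvk, the mevalonate kinase, was at 47.3, 48.4 and 26.2 CPM in EV and 10.5, 10.2 and 4.97 CPM in Sox4 (log2 fold change -2.25, SE 0.45, adjusted p = 0.000843). Pmvk, the next kinase, was at 79.98, 48.4 and 32.5 CPM in EV and 10.9, 5.16 and 3.55 CPM in Sox4 (-3.03, SE 0.60, adjusted p = 0.00331). Both groups of Pmvk spread widely without overlap, and EV replicate 1 and Sox4 replicate 1 were the highest of their groups. Mvd, the decarboxylase that follows, was at 68.9, 55.7 and 36.2 CPM in EV and 5.21, 5.52 and 3.95 CPM in Sox4, which was 10.9-fold lower (-3.45, SE 0.31, adjusted p = 7.96e-06). Its Sox4 libraries lay close together and far below every EV library. Idi1, which isomerises the isoprenoid unit, was at 157, 159.7 and 133 CPM in EV and 24.6, 37.9 and 9.22 CPM in Sox4 (-2.65, SE 0.60, adjusted p = 0.00475). The EV values of Idi1 were close to each other and the Sox4 values were not, and without Sox4 replicate 1 the adjusted p was 0.0507. Fdps, which makes farnesyl diphosphate, had 224, 101 and 94 counts in EV and 22, 21 and 10 in Sox4, and was 11.7-fold lower (adjusted p = 0.000169). Both genes share sequence with other annotated genes, 15.8% of the 100-base stretches of Idi1 and 21.4% of those of Fdps, so their values are less certain. For Fdps this is mainly Gm43738, which overlaps 26.7% of its exon bases on the same strand and had 0 counts in every library.

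The next 5 enzymes, from squalene synthesis to the first steps after lanosterol, fell by 3.44-fold to 5.58-fold. Fdft1, the squalene synthase, was at 330.3, 248 and 208 CPM in EV and 84.2, 85.9 and 41.3 CPM in Sox4 (3.72-fold lower, adjusted p = 0.00102). Sqle, the squalene epoxidase and a rate-limiting step of the branch, was at 192, 178 and 178 CPM in EV and 37.3, 49.5 and 15.6 CPM in Sox4 (log2 fold change -2.42, SE 0.50, adjusted p = 0.00197). The EV libraries of Sqle were nearly level, whereas Sox4 replicate 3 was clearly the lowest of its group. Lss, which closes the ring system to form lanosterol, was 4.36-fold lower at 33.3, 30.3 and 18.8 CPM against 163, 109 and 87.9 CPM (adjusted p = 0.000464). Cyp51, the lanosterol demethylase, was at 345, 316 and 265 CPM in EV and 67.3, 67.6 and 31.0 CPM in Sox4 (-2.48, SE 0.39, adjusted p = 0.000167). Tm7sf2, a sterol reductase, was 3.44-fold lower (adjusted p = 0.00115), and 7.9% of its 100-base stretches are shared, mainly with its overlapping neighbour Vps51, which did not pass the test (log2 fold change 0.02). Annotated genes on the opposite strand overlap 18.3% of the exon bases of Fdft1 (Ctsb), 12.1% of those of Hmgcs1 and 13.2% of those of Scap, a regulator given below, and without a stated strand setting their reads cannot be told apart. Ctsb had a log2 fold change of -0.35 (adjusted p = 0.0374).

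Msmo1, the sterol methyl oxidase and the gene with 3 upstream NF-Y boxes shown above, had the largest fall of the later enzymes. It was at 415, 334 and 320.2 CPM in EV and at 32.03, 48.0 and 14.6 CPM in Sox4, with means of 357 ± 51.1 and 31.5 ± 16.7 CPM (log2 fold change -3.50, SE 0.51, adjusted p = 0.000482). Every EV library was several times higher than every Sox4 library. Its partners in removing the same methyl groups fell less. Nsdhl, the decarboxylating dehydrogenase, was 4.57-fold lower (adjusted p = 0.00264). Hsd17b7, the ketosteroid reductase that completes the step, was at 140.4, 109.8 and 107 CPM in EV and 58.2, 84.1 and 75.0 CPM in Sox4 (-0.72 on the log2 scale, SE 0.20, adjusted p = 0.00399). The Hsd17b7 groups were close without overlap, and with library size alone its log2 fold change was -0.25 and not called.

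The last enzymes of the branch also fell. Ebp, the sterol isomerase, was 2.53-fold lower, at 117, 78.0 and 75.0 CPM against 259, 229 and 196 CPM (adjusted p = 0.000265). Sc5d, the desaturase that follows, was at 979, 727 and 649 CPM in EV and 186, 208 and 169.6 CPM in Sox4, with little spread within Sox4 (log2 fold change -2.06, SE 0.20, adjusted p = 1.36e-05). Dhcr7, which makes cholesterol from its last precursor in this route, was 3.71-fold lower (adjusted p = 0.000343). No Sox4 library of these 3 enzymes reached the lowest EV library.

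Among the 6 regulators and sterol-handling genes of the branch 4 fell. Insig1, which retains the SCAP and SREBP complex in the endoplasmic reticulum and is itself a well-known SREBP target, was at 1037, 731 and 655 CPM in EV and at 72.5, 89.2 and 27.9 CPM in Sox4. The mean went from 808 ± 202 to 63.2 ± 31.7 CPM, 12.8-fold lower and the largest fall among the 24 sterol genes (log2 fold change -3.68, SE 0.55, adjusted p = 0.000518). Every Sox4 library was far below every EV library, and the range on leaving out 1 library in turn was -4.01 to -3.32. Insig2, the paralogue with the same role, was at 343, 442 and 282 CPM in EV and 85.8, 108 and 146 CPM in Sox4 (-1.65, SE 0.29, adjusted p = 0.000261). Scap, the escort of SREBP, was at 179, 160.4 and 136 CPM in EV and 77.2, 64.3 and 67.8 CPM in Sox4 (-1.19, SE 0.14, adjusted p = 6.53e-05). Stard4, a soluble sterol carrier, was 3.86-fold lower, with 37.5, 64.1 and 27.7 CPM in Sox4 against 168, 155 and 176 CPM in EV (adjusted p = 0.000629).

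Srebf2, which encodes SREBP-2, and Soat2, which esterifies cholesterol, did not pass the test. Srebf2 was at 124, 116 and 84.3 CPM in EV and 99.1, 83.7 and 54.9 CPM in Sox4, and the groups overlapped (log2 fold change -0.44, SE 0.30, adjusted p = 0.121). The value was 0.02 with library size alone, and without EV replicate 3 it was -0.61 with an adjusted p of 0.045. Srebf2 was also called lower with a replicate block (-0.47, adjusted p = 0.00372) and without the filter on low counts (-0.40, adjusted p = 0.0138). Soat2 was at 41.6, 44.0 and 39.4 CPM in EV and 45.01, 38.8 and 31.9 CPM in Sox4, and these groups overlapped as well (-0.11, SE 0.15, adjusted p = 0.515). The Soat2 value was 0.0113 without Sox4 replicate 3, and with library size alone it was 0.36 and called higher (adjusted p = 0.0432).

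**Figure D2:**
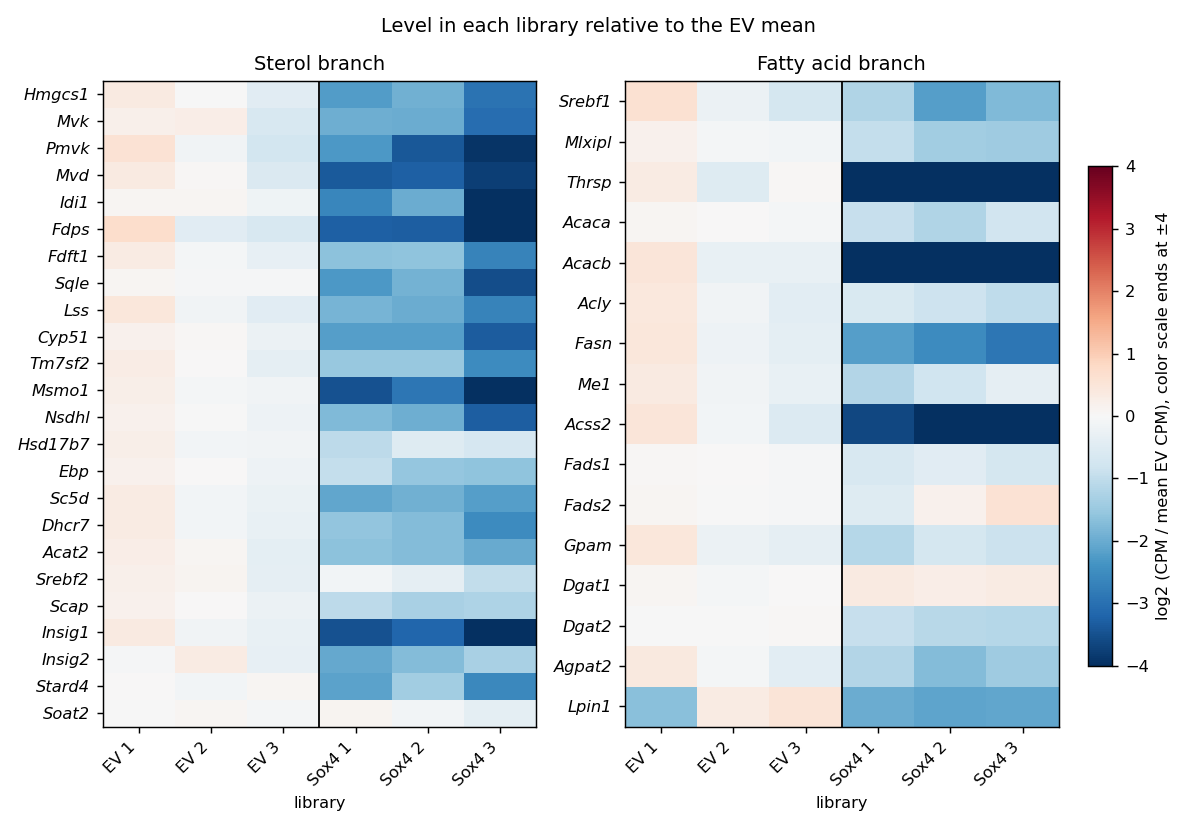
Heat map of the 40 genes (rows) in the 3 EV and 3 Sox4 libraries (columns), with the sterol and fatty acid branches in separate panels. Color gives the log2 of the CPM in a library over the mean EV CPM of that gene, on a scale cut at both ends. All EV libraries are above all Sox4 libraries for 22 sterol genes and 14 fatty acid genes, whereas the groups overlap for Srebf2, Soat2 and Fads2.

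Libraries of a group differed in a way that the sterol genes shared. Of the 24 sterol genes, 19 were highest in EV replicate 1 and 23 lowest in EV replicate 3 among the EV libraries, and 21 were lowest in Sox4 replicate 3 among the Sox4 libraries. The median deviation of a sterol gene from its group mean was 0.26, 0.001 and -0.276 on the log2 scale in the EV libraries and 0.30, 0.265 and -0.582 in the Sox4 libraries. In the fatty acid branch 14 of 16 genes were highest in EV replicate 1, with median deviations of 0.383, -0.073 and -0.189 in EV, and the Sox4 libraries lay between -0.037 and 0.059. The spread within Sox4 thus followed a shared shift in the sterol branch that had no counterpart of that size in the fatty acid branch, and this difference was not tested.

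The fatty acid branch fell to 43.0% of its EV sum. Its 16 genes summed to 7341, 5787 and 5423 CPM in the EV libraries and to 2591, 2636 and 2745 CPM in the Sox4 libraries, which were close to each other and below every EV library. The 3 regulators of the branch all fell. Srebf1, which encodes SREBP-1, was at 601, 337 and 240.0 CPM in EV and 172, 84.8 and 117 CPM in Sox4 (log2 fold change -1.66, SE 0.49, adjusted p = 0.0106). EV replicate 1 was much the highest library, and without it the log2 fold change was -1.23. The call on Srebf1 was lost when no filter on low counts was used (adjusted p = 0.082). Mlxipl, which encodes the carbohydrate-responsive factor ChREBP, was at 312, 260.0 and 252 CPM in EV and 141, 105 and 102 CPM in Sox4 (-1.24, SE 0.18, adjusted p = 0.000144).

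Thrsp, known as Spot14 and induced with lipogenesis by thyroid hormone and carbohydrate, had the largest fall of the 40 genes. It was at 372, 207 and 304 CPM in EV and at 5.11, 7.61 and 3.95 CPM in Sox4. The EV mean of 295 ± 83.0 CPM compared with 5.56 ± 1.87 CPM in Sox4 (log2 fold change -5.73, SE 0.37, adjusted p = 2.78e-06), and the range on leaving out 1 library in turn was -6.02 to -5.53. The groups were separated by a wide gap, and all Sox4 libraries remained above the floor of 3 counts, at most 0.153 CPM in these libraries.

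The enzymes that supply and use malonyl-CoA fell by very unequal amounts. Acacb, the acetyl-CoA carboxylase of the mitochondrial surface, whose product restrains fatty acid oxidation, was at 192, 112 and 112 CPM in EV and 4.41, 6.13 and 8.62 CPM in Sox4, 21.7-fold lower (log2 fold change -4.44, SE 0.38, adjusted p = 1.98e-05). Acaca, the cytosolic carboxylase of fatty acid synthesis, was at 156, 149 and 140.1 CPM in EV and 78.7, 65.0 and 87.0 CPM in Sox4, 1.93-fold lower (-0.95, SE 0.13, adjusted p = 0.000208). Neither gene overlapped between groups, and 23.7% of the 100-base stretches of Acaca are shared with other annotated genes. Acss2, which makes cytosolic acetyl-CoA from acetate, was at 555, 371 and 272 CPM in EV and 31.7, 24.6 and 22.1 CPM in Sox4, 15.3-fold lower (-3.93, SE 0.34, adjusted p = 9.27e-06). Acly, which makes it from citrate, was at 823, 562 and 454 CPM in EV and 399, 345 and 305 CPM in Sox4, 1.75-fold lower (-0.81, SE 0.27, adjusted p = 0.00992). The Acly groups were near each other, and with library size alone its log2 fold change was -0.34 and not called.

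Fasn, the fatty acid synthase that builds palmitate, was at 1268, 805 and 704 CPM in EV and 201, 161 and 126 CPM in Sox4, 5.69-fold lower (log2 fold change -2.51, SE 0.32, adjusted p = 5.15e-05). All EV libraries were several times above all Sox4 libraries. Me1, the malic enzyme that supplies NADPH, was at 275, 192 and 175 CPM in EV and 95.8, 122 and 167 CPM in Sox4 (-0.74, SE 0.30, adjusted p = 0.0233). Sox4 replicate 3 of Me1 came close to the lowest EV library. Its call was lost without EV replicate 1 (-0.53, adjusted p = 0.0713), Sox4 replicate 1 (-0.57, adjusted p = 0.0594) or Sox4 replicate 2 (-0.70, adjusted p = 0.0735), with library size alone (-0.27) and with a replicate block (adjusted p = 0.0958), and 12.3% of its 100-base stretches are shared with other annotated genes.

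Of the desaturases that make polyunsaturated fatty acids, Fads1 fell and Fads2 did not pass the test. Fads1 was at 596, 594 and 560.0 CPM in EV and 373, 422 and 355 CPM in Sox4, 1.52-fold lower without overlap (log2 fold change -0.61, SE 0.08, adjusted p = 0.00292), and its log2 fold change with library size alone was -0.14 and not called. Fads2 was at 491, 459.8 and 454 CPM in EV and 329, 526 and 703 CPM in Sox4 (0.15, SE 0.32, adjusted p = 0.617). The Sox4 libraries of Fads2 lay on both sides of the EV libraries. Its value was -0.13 without Sox4 replicate 3, and it was called higher without Sox4 replicate 1 (0.39, adjusted p = 0.0482) and with library size alone (0.62, adjusted p = 0.0456).

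Of the 5 enzymes of triglyceride assembly 4 fell and 1 rose. Dgat2, one of the enzymes of the last step, was at 552, 554 and 575 CPM in EV and 295, 262 and 255 CPM in Sox4, 2.07-fold lower (log2 fold change -1.05, SE 0.07, adjusted p = 8.83e-05). Dgat1, the unrelated enzyme of the same step, was at 26.3, 23.8 and 25.1 CPM in EV and 31.8, 30.1 and 31.6 CPM in Sox4, 1.25-fold higher (0.32, SE 0.05, adjusted p = 0.034). Replicates of both genes were close together and the groups did not overlap. The call on Dgat1 was lost on leaving out any 1 of the 6 libraries, with log2 fold changes of 0.27 to 0.34 and adjusted p from 0.0583 to 0.15, with DESeq2 (adjusted p = 0.0581) and without the filter on low counts (adjusted p = 0.0553).

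Gpam, which adds the first fatty acid to glycerol phosphate, was at 688, 435 and 399 CPM in EV and 228, 309.5 and 279 CPM in Sox4 (log2 fold change -0.90, SE 0.28, adjusted p = 0.00618), and was not called with library size alone (-0.43). Agpat2, which adds the second, was 2.67-fold lower, at 104, 70.6 and 86.7 CPM against 306, 218 and 173 CPM (adjusted p = 0.000621). Lpin1, the phosphatidate phosphatase, was at 128, 506 and 582 CPM in EV and 102, 93.2 and 96.1 CPM in Sox4. EV replicate 1 stood close to the Sox4 libraries and far below the other EV libraries, although 14 of the 16 genes of the branch were highest in that library among the EV libraries. The log2 fold change of Lpin1 was -2.06 (SE 0.70, adjusted p = 0.0201). It was -2.50 without EV replicate 1 (adjusted p = 3.84e-06), and the call was lost on leaving out any other library, with values from -2.10 to -1.72 and adjusted p between 0.0528 and 0.113. The call was also lost with a replicate block (adjusted p = 0.128) and without the filter on low counts (adjusted p = 0.103).

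Pairs of genes with the same or neighbouring roles were compared by the ratio of their counts within a library, which does not depend on how libraries are scaled. The pairs were chosen after the values were seen. Insig1 over Insig2 was 3.02, 1.65 and 2.33 in EV and 0.845, 0.825 and 0.191 in Sox4, so Insig1 was the more counted gene in every EV library and the less counted in every Sox4 library. Acacb over Acaca was 1.23, 0.750 and 0.798 in EV and 0.0561, 0.0943 and 0.0991 in Sox4. Fasn over Acly was 1.54, 1.43 and 1.55 in EV and 0.503, 0.467 and 0.413 in Sox4. These ratios were lower in all Sox4 libraries, with differences in log2 ratio of -2.149 (SE 0.752), -3.485 (SE 0.345) and -1.713 (SE 0.091). Srebf1 over Srebf2 went from 4.87, 2.91 and 2.85 to 1.73, 1.01 and 2.13, and Dgat2 over Dgat1 from 21.0, 23.3 and 22.9 to 9.29, 8.71 and 8.07. Fads1 over Fads2 was 1.22, 1.29 and 1.23 in EV and 1.13, 0.801 and 0.506 in Sox4. None of the 6 ratios overlapped between groups, and each had a two-sided p of 0.1 in an exact permutation test, the smallest that 3 against 3 libraries can give.

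**Figure D3:**
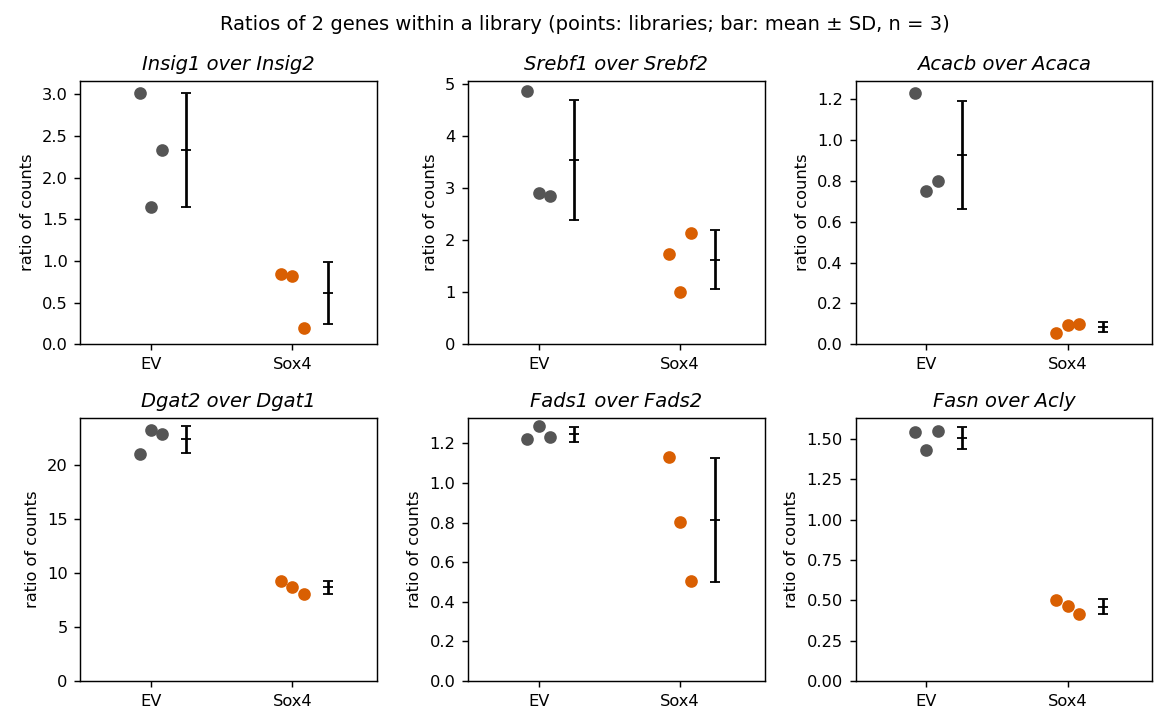
Ratio of the counts of 6 gene pairs within each library, on linear axes, with 1 point per library for EV and Sox4 and bars of mean ± SD (n = 3). All 6 ratios are lower in each Sox4 library than in any EV library. As a log2 ratio the difference is largest for Acacb over Acaca (-3.485).

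Levels of different genes were compared as CPM per kilobase of annotated exon. In EV the most abundant of the 40 mRNAs on this scale was Insig1, at 261 ± 65.3 CPM per kilobase, followed among sterol genes by Sc5d at 161, Hmgcs1 at 134 and Insig2 at 102. In Sox4 Insig1 was at 20.4 and ranked 14 of the 40, and the most abundant sterol genes were Ebp at 38.9, Sc5d at 38.6 and Insig2 at 32.6 CPM per kilobase. In the fatty acid branch Dgat2 led in EV at 182, followed by Fads2 at 142, Thrsp at 135 and Fads1 at 121 CPM per kilobase. In Sox4 Fads2 led at 158, followed by Dgat2 at 87.9 and Fads1 at 79.7, and Thrsp was at 2.54 CPM per kilobase. Fdps had the lowest level of the 40 in both groups, at 2.52 and 0.213 CPM per kilobase, with the uncertainty given above.

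Other genes around the pathway were examined in 5 further lists. Of their 57 tested genes, 19 fell (33.3%) and 14 rose (24.6%), shares near the 26.0% and 29.0% of all tested genes. Among 11 genes of SREBP processing and sterol sensing 3 fell (27.3%) and 2 rose (18.2%), also close to all tested genes (median log2 fold change -0.24). Rnf145, a ubiquitin ligase of the endoplasmic reticulum, rose from 9.72 ± 1.96 to 33.3 ± 5.83 CPM (adjusted p = 5.06e-05), and Mbtps2, the site-2 protease that releases SREBP, rose 2.13-fold (adjusted p = 0.000736). Erlin1, a lipid-raft protein of the same membrane, fell 1.88-fold (adjusted p = 0.000236). With library size alone the median of the list was 0.23, with 5 genes higher and 2 lower.

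Of 8 tested genes of isoprenoid side branches and auxiliary sterol steps 6 fell (75%) and none rose (median -0.66), against 26.0% lower among all tested genes. Cyb5r3, which passes electrons to cytochrome b5 for desaturation, fell from 565 ± 64.8 to 190.2 ± 46.8 CPM (adjusted p = 9.96e-05). Pgrmc1, a haem protein that binds sterol cytochromes, fell 2.17-fold (adjusted p = 0.000158), and Pdss2, which builds the coenzyme Q side chain, fell 1.69-fold (adjusted p = 0.00569). With library size alone 2 of these genes were lower and 2 higher (median -0.19), and Pdss2 was not called. Among 10 genes that supply carbon and NADPH, 7 fell (70%) and 2 rose (median -0.65). Khk, the fructokinase, fell from 351 ± 80.2 to 63.1 ± 15.7 CPM (adjusted p = 2.56e-05), and Mid1ip1, a relative of Thrsp that acts on acetyl-CoA carboxylase, fell 4.16-fold (adjusted p = 0.000886). G6pdx, which makes NADPH in the pentose phosphate pathway, rose 3.19-fold (adjusted p = 0.00603), with 19.1, 19.2 and 7.04 CPM in Sox4. With library size alone 3 of the 10 were lower and 3 higher (median -0.19).

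Of 10 genes of cellular sterol uptake, storage and efflux 6 rose (60%, against 29.0% of all tested genes) and 1 fell (median 0.63), and with library size alone 8 rose and 1 fell (median 1.10). Abcg1, a sterol exporter, rose from 1.62 ± 0.234 to 10.1 ± 2.08 CPM (adjusted p = 2.42e-05), and Npc2, which carries cholesterol out of lysosomes, rose 2.56-fold (adjusted p = 2.21e-05). Stard5, a sterol-binding protein, fell 2.09-fold (adjusted p = 2.72e-05). Of 18 tested acyltransferase and lipid droplet genes 4 rose (22.2%) and 2 fell (11.1%), both below the shares of all tested genes, and 12 did not pass (median 0.19). With library size alone 8 of the 18 were higher and 2 lower (median 0.66). Plin2, the main coat protein of lipid droplets, was at 376, 325 and 306 CPM in EV and 661, 1230.5 and 1686 CPM in Sox4 (log2 fold change 1.83, SE 0.41, adjusted p = 0.000964). Hilpda, which restrains droplet lipolysis, rose 4.96-fold (adjusted p = 7.43e-05), and Plin3, another coat protein, fell 1.95-fold (adjusted p = 0.000167). Abcg1 and Plin2 are also expressed by macrophages, whose summed markers were higher in Sox4 as given above, and their part in these values was not tested.

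**Figure D4:**
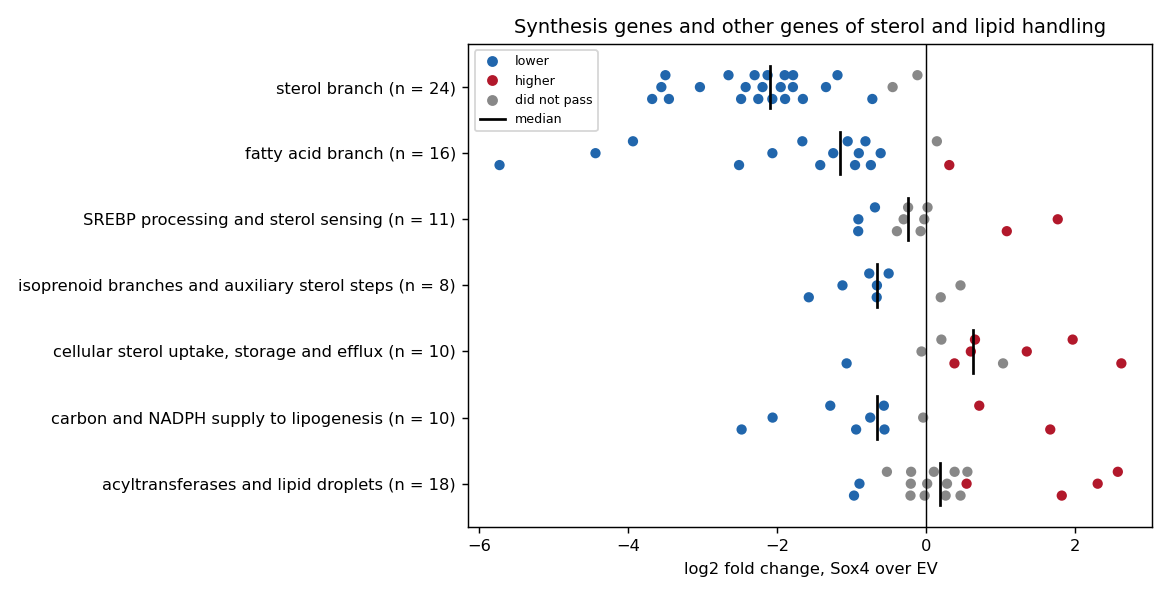
Log2 fold change of Sox4 over EV for each tested gene of the sterol and fatty acid branches and of 5 further lists (1 point per gene), with the median of each list. The medians are -2.09 and -1.15 for the 2 branches and lie between -0.66 and 0.63 for the other lists.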

How the data were processed

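RNA-seq was done on mouse hepatocytes from 3 EV and 3 Sox4 samples, grouped by their labels. The authors deposited raw counts per gene, made with STAR 2.7.10b on GRCm39 and featureCounts 2.0.1 per the labels. Annotation release, strand setting and multi-mapping rule are not given in the sources used here. A table normalized by the authors was not used.

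The tests were run with edgeR 4.0.16 under R 4.3.3 (filterByExpr with a minimum count of 10 and total of 15, TMM scaling, robust quasi-likelihood F test, Benjamini-Hochberg over 12691 genes, threshold 0.05), tested on simulated data. SE is that of the difference between mean log2 CPM (prior count 2). P-values measure the spread between these libraries, which the study describes as separate animals. Total counts were 15090629 to 16964860, and a floor of 3 counts (0.150 to 0.231 CPM) covers counting error only. Replicates differed beyond counting noise (chi-square per degree of freedom 17.6 to 62.7).

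Alternatives were DESeq2 size factors, upper quartile scaling, library size alone, no filter, a mean count of at least 50, DESeq2 1.42.0, limma-voom (limma 3.58.1), a replicate block and each library left out in turn. Exon length, shared sequence (100-base stretches) and promoters came from GENCODE M21 and RefSeq, both on GRCm38 builds that differ from that of the counts, so their coordinates apply only to the sequences shown.

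All 40 members are named. Of the further lists, at most 3 genes are named, those called with the largest fold change and a mean count of at least 100. Members and lists were chosen with earlier results of these data known.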

Additional observations from a re-analysis of the deposited data

How the results depend on the processing

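Of 560 values of the 40 genes under alternatives, 525 had the direction and call reported above, 26 lost the call, 5 gained one and 4 changed direction. With library size alone the median log2 fold change was -1.63 for the sterol branch and -0.68 for the fatty acid branch, and 79.9% of all called genes were higher against 52.7% with TMM. That scaling gave 0.0245 for Srebf2 and 0.3586 for Soat2. Without Sox4 replicate 3, Soat2 was at 0.0113 and Fads2 at -0.1265, the ends of leave-one-out ranges of -0.2405 to 0.0113 and -0.1265 to 0.3894. On leaving out 1 library in turn, 21 to 23 sterol and 12 to 13 fatty acid genes were called, with medians of -2.26 to -1.89 and -1.26 to -1.10, and 6027 to 7269 of all genes were called. Without the filter 23 sterol and 12 fatty acid genes were called, and calls were lost for Srebf1 (adjusted p = 0.082), Dgat1 (0.0553) and Lpin1 (0.103), while Srebf2 was called lower (-0.40, adjusted p = 0.0138). The cause of these changes was not tested.

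Replicate numbers are shared between groups in the labels, but deviations of same-numbered libraries correlated at 0.273, -0.09 and 0.131, so the numbers were not taken to pair the samples. With a replicate block 23 sterol and 13 fatty acid genes were called and 7362 of all genes, against 22, 15 and 6990 without it. Under the block Srebf2 was called (-0.47, adjusted p = 0.00372), and Me1 (adjusted p = 0.0958) and Lpin1 (adjusted p = 0.128) were not. Fdps had the lowest counts of all members, with 10 to 22 counts in Sox4. An annotated gene, Gm43738, overlaps 26.7% of its exon bases on the same strand and had 0 counts in every library. Whether depth or the assignment of reads kept Fdps low was not tested.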
